A study of Rattus norvegicus with 9 samples.

Results

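A set of 10 genes of osteoclast fusion and bone resorption was followed across rat femur libraries: Acp5, Ctsk, Oscar, Dcstamp, Ocstamp, Calcr, Nfatc1, Atp6v0d2, Car2 and Siglec15. They were found by symbol, and all 10 were present, each as 1 row, among the 31125 gene rows of the count table. The RNA came from femurs of male rats taken on day 7, with 3 libraries in each of 3 groups. Sham rats had sham surgery only, GPI rats had the distal femoral growth plate injured, and GMTT rats had this injury and then a hydrogel. By the series title the gel holds tea polyphenols in GelMA, a photo-curable gelatin, with TPGS, a water-soluble form of vitamin E. The labels describe the GMTT femurs both as injured and as having an intact growth plate, and neither strain nor age is stated there. None of the 3 groups received a gel without tea polyphenols. The design text gives 3 specimens per group and is silent on pooling of animals; the tests below rest on the spread from library to library, which may in part be technical.

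Osteoclasts are the cells that dissolve bone. They form when precursors of the monocyte lineage, driven by the cytokines CSF1 and RANKL, switch on the transcription factor NFATc1 and fuse into large cells with many nuclei. The fused cell seals off a patch of bone, pumps acid onto it to dissolve mineral and releases proteases that cut collagen. In a growing femur they clear calcified cartilage under the growth plate and reshape new bone.

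Libraries held 15927429 to 19715997 counts. Tissue make-up differed between groups, and these values stand beside every result below. The 10 muscle markers matched took 0.191% to 0.206% of Sham, 8.25% to 8.68% of GPI and 1.83% to 1.96% of GMTT counts, and the 10 erythroid markers took 1.35% to 1.36%, 0.107% to 0.112% and 0.780% to 0.789%. In GPI the erythroid share was nearly all Tfrc, the transferrin receptor gene used by many cell types (1531, 1788 and 1168 normalised CPM in Sham, GPI and GMTT), and each of the other 9 markers stood at 20.2 CPM or less there. Mitochondrially encoded genes took 3.80% to 4.19%, 25.8% to 27.3% and 5.84% to 6.55%. Markers of macrophages (14 genes, led by Lyz2) took 0.585% to 0.624% in Sham, 0.00797% to 0.00855% in GPI and 0.621% to 0.645% in GMTT. Lyz2 alone stood at 3999, 41.6 and 4105 normalised CPM in the same order, so these shares largely follow that gene. Neutrophil markers moved in the same direction, at 0.888% to 0.958%, 0.000480% to 0.000558% and 1.05% to 1.10%, as did megakaryocyte markers (0.103% to 0.110%, 0.000381% to 0.000497% and 0.0971% to 0.105%). Bone was also represented unequally. Of the 10 osteoblast and osteocyte markers 9 fell in GPI against Sham, with a median log2 fold change of -1.77, including Bglap (-1.72) and Ibsp (-1.17), and Col1a1 rose on the TMM scale (0.21) but fell with library sizes only (-0.88), where all 10 were lower. In GMTT against Sham 6 of these 10 were lower and 2 higher, with a median of -0.26. The 10 osteoclast genes themselves took 0.332% to 0.349% of Sham, 0.00638% to 0.00652% of GPI and 0.208% to 0.214% of GMTT counts. In Sham and GMTT most of these were Car2, a gene also abundant in red cells. It had 132611 and 73348 counts over the group, against 25621 and 23864 for Ctsk, so these 2 shares largely follow Car2. The part of tissue make-up in the differences below was not tested, and in bulk tissue fewer osteoclasts and less RNA per osteoclast cannot be told apart.

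Between genes, levels were compared per length, as FPKM. In Sham, Car2 was highest at 732 ± 25.4 FPKM (SD, n = 3), followed by Ctsk at 267 ± 3.26 and Acp5 at 108 ± 5.76. The other 7 genes lay far lower. Atp6v0d2 (5.85 ± 0.522) and Nfatc1 (5.02 ± 0.489) overlapped between libraries, and below them came Dcstamp (2.63 ± 0.260), Siglec15 (1.93 ± 0.193), Oscar (0.821 ± 0.0319), Ocstamp (0.501 ± 0.0542) and Calcr (0.377 ± 0.0634). The enzymes that carry out resorption had far more counts behind them than the fusion and receptor genes, whose values are less precise. In GMTT the 3 enzymes kept the same order, at 392, 241 and 85.8 FPKM, and Oscar stood above Siglec15 and Dcstamp, at 2.47 ± 0.217 against 2.09 ± 0.102 and 1.81 ± 0.120. In GPI the order was different: Ctsk led at 24.7 ± 0.810 FPKM and Nfatc1 came next at 10.5 ± 0.267, above Car2 (6.03 ± 0.502) and Acp5 (3.29 ± 0.418).

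**Figure D1:**
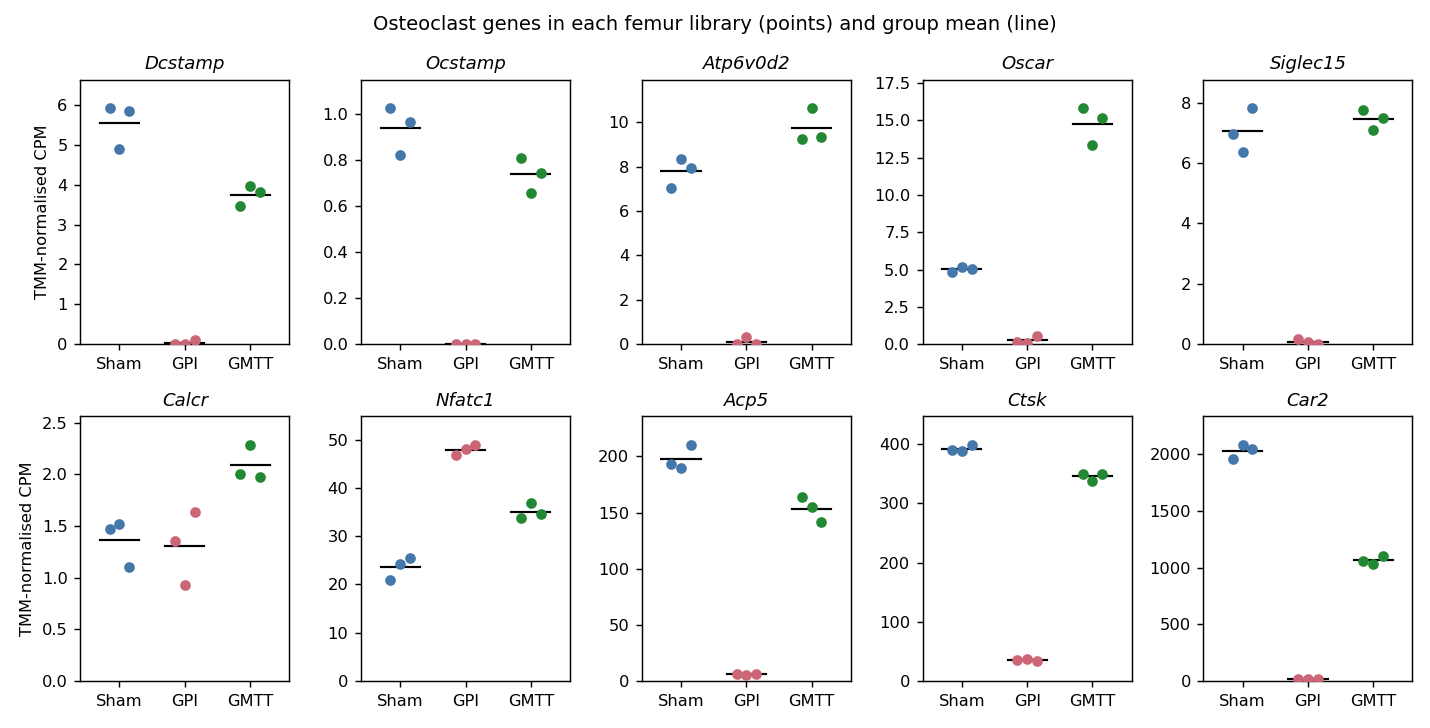
Normalised CPM (TMM scale, linear axes from 0) of the 10 osteoclast genes in each of the 9 libraries, with the group mean as a line. In GPI 8 genes sit near 0 or far below the other groups, Calcr overlaps with Sham and Nfatc1 is highest.

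Promoter windows from RefSeq (GRCr8, 250 bases before to 50 after an annotated start, read along the gene) were matched by symbol for 6 of the 10 genes, Acp5 having 2 starts. The windows of 5 genes are shown because they give the main contrasts of the results: resorption enzymes (Acp5, Ctsk) and a receptor (Siglec15) that fell in GPI, Oscar, which was highest in GMTT, and Calcr, for which no difference between GPI and Sham was detected. Capitals mark matches, on either strand, to GGAAA (the core bound by NFAT factors), GAGGAA (the core of PU.1, encoded by Spi1) or TCATGTG (a site type of MITF).
Acp5 promoter, chr8:28943880-28944179, - strand: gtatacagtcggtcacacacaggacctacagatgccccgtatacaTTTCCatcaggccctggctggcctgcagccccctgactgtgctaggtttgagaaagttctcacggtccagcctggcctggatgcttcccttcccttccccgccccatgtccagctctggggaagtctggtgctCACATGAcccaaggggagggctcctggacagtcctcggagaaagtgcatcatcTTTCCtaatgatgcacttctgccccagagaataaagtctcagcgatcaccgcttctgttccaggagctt
Ctsk promoter, chr2:185747298-185747597, + strand: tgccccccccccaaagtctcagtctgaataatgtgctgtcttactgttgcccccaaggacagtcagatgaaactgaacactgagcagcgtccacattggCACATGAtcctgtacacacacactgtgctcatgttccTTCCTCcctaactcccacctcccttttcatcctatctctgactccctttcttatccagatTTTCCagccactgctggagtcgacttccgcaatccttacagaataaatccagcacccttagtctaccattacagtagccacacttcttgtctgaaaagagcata
Siglec15 promoter, chr18:73796965-73797264, - strand: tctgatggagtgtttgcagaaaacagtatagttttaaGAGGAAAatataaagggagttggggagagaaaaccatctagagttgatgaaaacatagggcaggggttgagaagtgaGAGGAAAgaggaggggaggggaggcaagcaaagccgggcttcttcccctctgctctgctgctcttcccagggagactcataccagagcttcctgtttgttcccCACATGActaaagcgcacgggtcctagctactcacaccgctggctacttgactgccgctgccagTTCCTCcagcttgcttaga
Oscar promoter, chr1:74522633-74522932, + strand: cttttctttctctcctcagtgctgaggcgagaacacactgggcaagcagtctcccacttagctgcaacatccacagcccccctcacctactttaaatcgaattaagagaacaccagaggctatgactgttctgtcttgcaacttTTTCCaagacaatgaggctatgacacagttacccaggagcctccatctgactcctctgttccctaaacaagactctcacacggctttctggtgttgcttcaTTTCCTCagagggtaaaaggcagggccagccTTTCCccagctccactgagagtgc
Calcr promoter, chr4:32691026-32691325, - strand: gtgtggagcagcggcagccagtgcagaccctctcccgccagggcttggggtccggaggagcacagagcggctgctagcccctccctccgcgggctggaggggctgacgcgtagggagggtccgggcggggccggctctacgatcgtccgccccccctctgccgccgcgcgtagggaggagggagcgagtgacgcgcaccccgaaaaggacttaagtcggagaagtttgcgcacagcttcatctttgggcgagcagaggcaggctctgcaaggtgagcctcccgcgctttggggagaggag
TCATGTG occurred in windows of 3 of the 6 genes with a window, Acp5, Ctsk and Siglec15, and in 3.56% of 33465 rat promoter windows of the same length. Its first base along the gene lay at -151 in Ctsk, -72 in the second Acp5 window and -33 in Siglec15. GAGGAA was found in Ctsk, Oscar and Siglec15 (27.6% of all windows), and GGAAA in a window of each gene but Calcr (62.7% of all windows). The 2 motifs overlap in Siglec15 and Oscar, where the shared letters were counted for each. No window of these genes held TGANTCA (AP-1) or CACGTG (7.33% and 6.42% of all windows). These shares are per window, whereas the genes are counted once each and have 7 windows. The first Acp5 window, not shown, held none of the 5 motifs. A match is a description of letters and no evidence of binding.

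The question of growth plate injury was addressed by GPI against Sham. Of the 10 osteoclast genes 8 fell, 1 rose (Nfatc1) and 1 was not called (Calcr). A call needed a p below 0.05 after Benjamini-Hochberg adjustment (edgeR, quasi-likelihood), and at this threshold 48.1% of all 15936 tested genes were lower, 40.1% higher and 88.2% called in either direction. The median log2 fold change of the 10 genes was -5.52 (-4.64 with Ocstamp, which had no count in GPI, at its bound) against -0.19 for all genes. Library values did not overlap for 9 of the 10, against 88.3% of all genes, and 9 were called with at least a 2-fold change, against 58.3% of all genes (26.7% higher, 31.6% lower). Dcstamp, Ocstamp, Atp6v0d2, Oscar, Siglec15 and Calcr, 6 of the 10, reached the low-count minimum in all 3 libraries only in Sham and GMTT. Genes that pass in this way tend to be lower in GPI by construction, so the count of genes that fell, the median and the lack of overlap are no support. The adjusted p-values of these 6 genes in GPI against Sham carry the same limit.

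The 3 resorption enzymes fell in GPI with no overlap between libraries. Acp5 (ENSRNOG00000046261, mRatBN7.2 chromosome 8, 20663985 to 20667929, protein-coding like all 10) encodes tartrate-resistant acid phosphatase, the classical stain for osteoclasts. It was at 193, 190 and 210 normalised CPM in Sham and at 6.35, 5.04 and 6.26 in GPI, a log2 fold change of -5.07 (SE 0.09, adjusted p = 1.58e-31). Ctsk (ENSRNOG00000021155, chromosome 2, 183058569 to 183069550) encodes cathepsin K, the protease that cuts bone collagen in the acid pit. Its values were 390, 389 and 399 CPM in Sham and 36.1, 36.4 and 33.9 in GPI, a change of -3.47 (SE 0.05, adjusted p = 8.24e-33). Ctsk thus fell 11.1-fold. Car2 (ENSRNOG00000009629, chromosome 2, 86741626 to 86756818) encodes carbonic anhydrase II, which makes the protons for the acid pump and is also abundant in red cells. Car2 went from 1957, 2082 and 2047 CPM in Sham to 17.4, 14.9 and 16.8 in GPI, a change of -6.96 (SE 0.06, adjusted p = 7.43e-39) beside erythroid markers with a median change of -9.84.

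Fusion genes were at or near 0 counts in GPI. Dcstamp (ENSRNOG00000004704, chromosome 7, 70807581 to 70822078) and Ocstamp (ENSRNOG00000019110, chromosome 3, 154132328 to 154136991) encode related membrane proteins needed for precursors to fuse. Dcstamp had 121, 113 and 127 counts in Sham and 0, 0 and 1 in GPI, a ratio of normalised levels of 188.6 (95% counting interval 33.63 to 7468, counting error only). Ocstamp had 21, 19 and 21 counts in Sham and none in GPI, and was at least 10.6-fold lower when 3 counts over the group are taken as the floor. Neither gene overlapped between the groups, but both reached the low-count minimum only in Sham and GMTT, so the lack of overlap is no support. Their size of change is poorly fixed. Atp6v0d2 (ENSRNOG00000006926, chromosome 5, 33336264 to 33385354) encodes a subunit of the proton pump that also takes part in fusion. It had 144, 193 and 173 counts in Sham and 0, 4 and 0 in GPI (log2 -5.98, SE 0.35, adjusted p = 1.22e-16). Atp6v0d2 too reached the low-count minimum only in Sham and GMTT, so this adjusted p is no support. All 4 GPI counts came from 1 library, and without it the fitted change was -10.25, which is not a bound.

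The receptors divided. Oscar (ENSRNOG00000055716, chromosome 1, 65607410 to 65613758) encodes a receptor that binds collagen and signals through the adaptor FcR gamma (Fcer1g). It was at 4.84, 5.20 and 5.01 CPM in Sham and 0.169, 0.0840 and 0.578 in GPI (log2 -4.22, SE 0.31, adjusted p = 4.54e-14), which is 9 counts over the GPI libraries, 6 of them in 1; without that library the change was -5.24. Siglec15 (ENSRNOG00000033588, chromosome 18, 71505399 to 71521881) encodes a sialic acid receptor that signals through DAP12 (Tyrobp). It had 142, 147 and 170 counts in Sham and 2, 1 and 0 in GPI, a ratio of 79.9 (counting interval 27.2 to 388.9). Calcr (ENSRNOG00000010053, chromosome 4, 31661273 to 31736392), the receptor for calcitonin, the hormone that stops resorption, did not follow the other receptors. Its level was 1.47, 1.52 and 1.10 CPM in Sham and 1.35, 0.924 and 1.64 in GPI, with overlapping libraries and a change of -0.08 (SE 0.28, adjusted p = 0.793). At 11 to 35 counts a library this comparison is imprecise, and with library sizes only, without TMM, Calcr was -1.16 and called.

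Nfatc1 (ENSRNOG00000017146, chromosome 18, 74046904 to 74156028), the regulator that switches on most of the other genes in osteoclasts and is also expressed in other tissues, rose on the TMM scale. It was at 21.0, 24.1 and 25.4 CPM in Sham and 46.9, 48.0 and 48.9 in GPI (log2 1.02, SE 0.07, adjusted p = 1.14e-14). The groups did not overlap on this scale. As a share of raw counts it was 0.00269% to 0.00325% in Sham and 0.00282% to 0.00294% in GPI, and with library sizes only the change was -0.07 (adjusted p = 0.359), so its direction rests on the scaling. Under that setting 9 of the 10 genes fell and none rose, while the all-gene median shifted to -1.28 from -0.19.

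**Figure D2:**
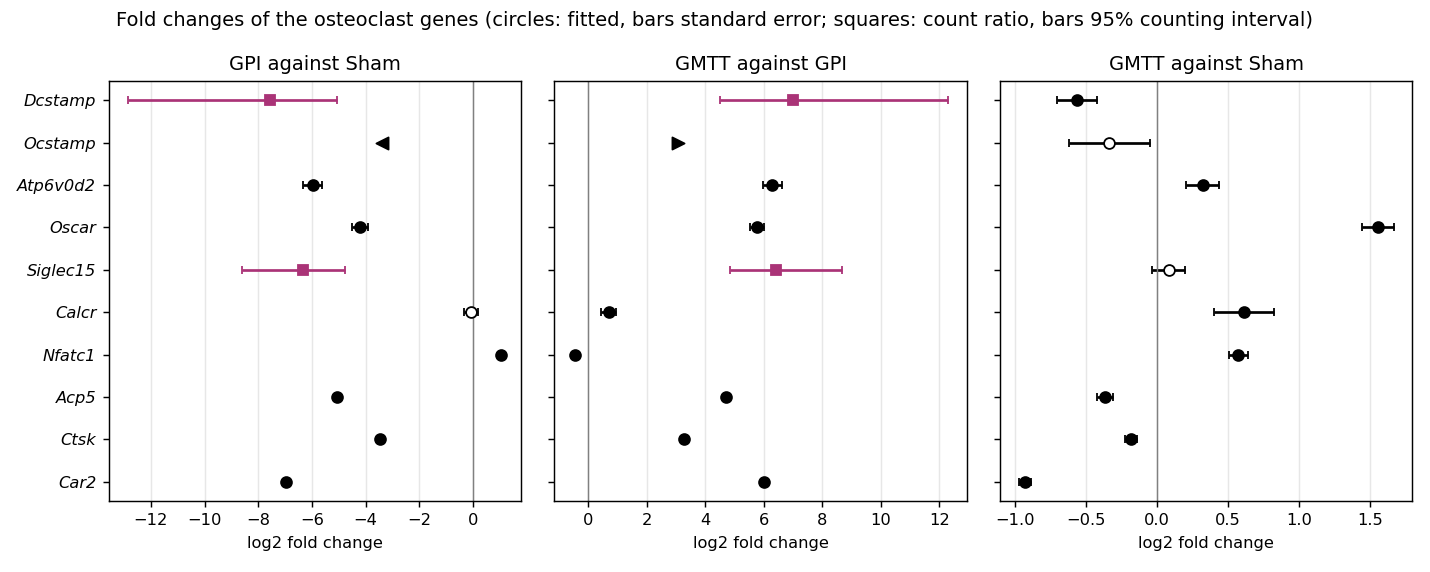
Log2 fold changes of the 10 osteoclast genes in the 3 comparisons, each panel with its own axis. Filled circles passed and open circles missed an adjusted p of 0.05 (bars: SE); squares are count ratios of genes with 1 to 3 counts in GPI (bars: 95% counting interval), and triangles for Ocstamp are bounds. Differences from GPI reach beyond 6 log2 units, whereas GMTT and Sham differ by -0.93 to 1.56.

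Among 47 related osteoclast genes, in 6 lists, 35 fell, 10 rose and 2 were not called in GPI against Sham, with a median of -0.95. Of all tested genes 48.1% were lower, 40.1% higher and 88.2% called in either direction. Of 14 receptor and signalling genes 13 fell, among them the kinase gene Syk (-6.25), Itgb3, which encodes the integrin subunit of the sealing ring (-5.79), Plcg2 (-5.10) and Fcer1g (-4.34); Itgav rose (0.66). Of 9 genes of acid secretion and matrix removal 8 fell, including the protease gene Mmp9 (-7.39), Snx10 (-2.52), the pump subunit Tcirg1 (-2.29) and Ostm1 (-0.91), which encodes a partner of the chloride channel; Mmp14 rose (0.25). Of 8 fusion partners 5 fell, including Adam8 (-5.17), Sirpa (-3.82), Cd47 (-2.75) and Cd44 (-1.69), and 2 rose. Transcription factors went both ways. Of 9 that promote osteoclast formation 6 fell, including Spi1 (-5.33) and Nfkb1 (-0.57), and 3 rose, including Fos (3.10) and Mitf (2.17). Among those that oppose it Irf8 fell (-4.28), while Bcl6 rose (2.84). Among ligands, Tnfsf11 (RANKL) fell from 3.44 to 0.357 CPM (-3.27, SE 0.32), Csf1 fell (-0.93), Il34, which encodes a second ligand of the CSF1 receptor, rose (2.11), and the decoy receptor gene Tnfrsf11b (osteoprotegerin) was -0.41 and not called. These directions are on the TMM scale. With library sizes only 7 of the 47 rose and 40 fell, with Itgav at -0.43, Mmp14 at -0.84 and Tnfrsf11b at -1.50, all called lower.

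Macrophage markers fell beside the osteoclast genes, 14 of 14, with a median of -2.87. Cd14 was not called under median-of-ratios scaling. All 7 tested neutrophil and 5 tested megakaryocyte markers also fell, with medians of -10.3 and -6.97. How much each cell type adds to the falls of the related genes was not tested. Within a library, where no scaling enters, the 9 osteoclast genes without Car2 gave 13.7 ± 0.158 counts for every 100 of the macrophage markers in Sham, against 67.1 ± 2.68 in GPI and 11.7 ± 0.220 in GMTT (SD, n = 3). In GPI these counts came mostly from Nfatc1 and Ctsk. The macrophage counts were mostly Lyz2 in Sham and GMTT (3999 and 4105 CPM). In GPI Lyz2 stood at 41.6 CPM, a change of -6.58 from Sham against the list median of -2.87. The ratio in GPI therefore depends on Lyz2 as well. Per length, Nfatc1 made up 23.3% ± 0.818 of the summed FPKM of the 10 genes in GPI against 0.446% ± 0.0330 in Sham and 1.03% ± 0.0647 in GMTT. Car2 made up 13.4% ± 0.972 in GPI, 65.1% ± 0.860 in Sham and 52.9% ± 1.04 in GMTT, and Ctsk 54.8% ± 1.88, 23.8% ± 0.498 and 32.5% ± 0.138.

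**Figure D3:**
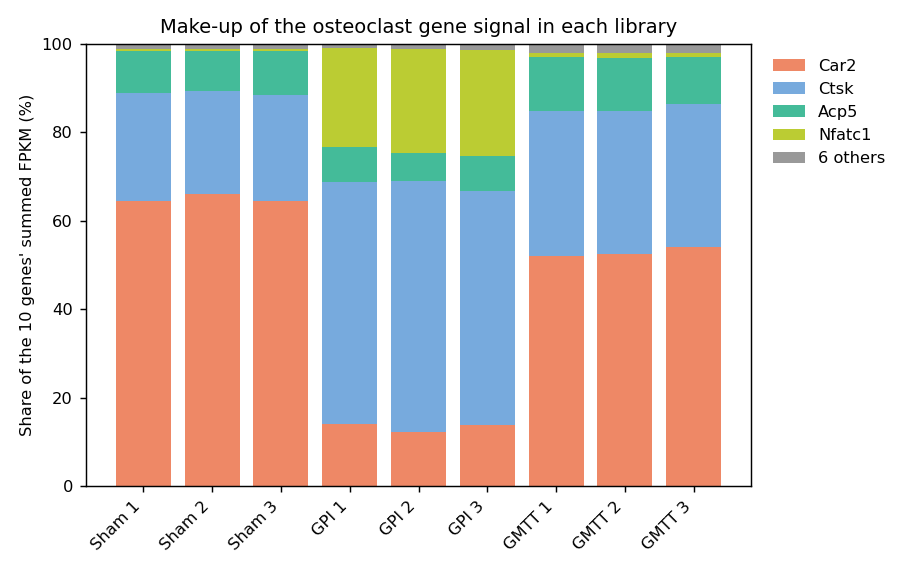
Share of the summed FPKM of the 10 osteoclast genes held by each gene in every library, a measure that does not depend on scaling between libraries. In GPI, Nfatc1 holds 22.4% to 23.96% and Car2 12.3% to 14.05%, and the 3 libraries of each group look alike.

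How the gel-treated injured femur differed from the untreated one was read from GMTT against GPI. This comparison uses the same GPI libraries as the one before, so their low values enter both. Of the 10 osteoclast genes 9 were higher in GMTT and Nfatc1 was lower, against 45.7% of all tested genes higher, 40.2% lower and 85.9% called in either direction. The median was 5.90 (5.24 with Ocstamp at its bound) against 0.12 for all genes. Library values did not overlap for any of the 10, against 86.2% of all genes without overlap, and 8 changed at least 2-fold, against 53% of all genes (28.6% higher, 24.4% lower). The 6 genes that reached the low-count minimum only in Sham and GMTT tend to be higher in GMTT than in GPI by construction. The count of genes that rose, the median and the lack of overlap are therefore no support. The adjusted p-values of these 6 genes in GMTT against GPI carry the same limit. Macrophage markers (14 of 14 higher, median 2.97) and erythroid markers (9 of 10 higher, median 9.02) moved with them, and muscle markers fell (10 of 10, median -3.29). With library sizes only, 10 erythroid markers were higher and 9 muscle markers lower.

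Acp5 stood at 164, 155 and 142 CPM in GMTT, 26.1-fold above GPI (log2 4.71, SE 0.09, adjusted p = 2.68e-30). Ctsk was at 350, 339 and 349 CPM (3.28, SE 0.05), and Car2 at 1055, 1035 and 1100 (6.02, SE 0.06). No GMTT library overlapped with a GPI library for any of the 3 enzymes. Dcstamp had 81, 90 and 87 counts in GMTT against 1 over the GPI libraries, a ratio of 127.5 (counting interval 22.7 to 5056). Ocstamp had 19, 15 and 17, at least 8.40-fold above GPI, and Siglec15 had 182, 161 and 171, a ratio of 84.7 (28.8 to 412). Atp6v0d2 was 6.30 higher (SE 0.33) and Oscar 5.77 (SE 0.25), the latter reaching 15.8, 13.4 and 15.1 CPM. The fitted change of Atp6v0d2 was 10.58 without GPI replicate 2, which holds its 4 GPI counts. With no GPI count left, that value depends on the fit and is not a bound. The fitted change of Oscar was 6.80 without GPI replicate 3, which holds 6 of its 9 GPI counts.

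Calcr and Nfatc1 again stood apart. Calcr was at 2.01, 2.28 and 1.97 CPM in GMTT, above every GPI library (log2 0.69, SE 0.25, adjusted p = 0.0128). That call was lost without GPI replicate 2 (0.49, adjusted p = 0.101) and in DESeq2 (adjusted p = 0.0534). Nfatc1 was at 33.7, 36.9 and 34.6 CPM, a change of -0.45 (SE 0.07, adjusted p = 4.1e-07), which turned to 0.65 with library sizes only. Under that setting all 10 genes were higher in GMTT. Of the 47 related genes 36 rose, 10 fell and 1 was not called, with a median of 1.201, and with library sizes only 39 rose and 4 fell. Of all tested genes 45.7% were higher, 40.2% lower and 85.9% called in either direction on the TMM scale. The acid and matrix removal list rose in all 9 genes, and in the receptor list 13 of 14 rose (14 with library sizes only). The promoting factors had 6 higher and 3 lower, and among the opposing factors Irf8 rose by 4.70 while Bcl6 fell by 1.85.

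What still set treated femurs apart from uninjured ones was read from GMTT against Sham, where the osteoclast genes differed by less than 3-fold and in both directions. Oscar, Calcr, Nfatc1 and Atp6v0d2 were higher in GMTT, Car2, Dcstamp, Acp5 and Ctsk were lower, and Ocstamp and Siglec15 were not called. Among all tested genes 29.5% were higher, 28.3% lower and 57.8% called in either direction, beside 8 of the 10 osteoclast genes. Of these, Oscar alone changed at least 2-fold, as did 11.6% of all genes (9.19% higher, 2.44% lower). The median of the 10 genes was -0.05 against -0.003 for all genes, with groups that did not overlap in 9 of the 10, against 61.7% of all genes.

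Oscar rose from 4.84, 5.20 and 5.01 CPM in Sham to 15.8, 13.4 and 15.1 in GMTT, 2.94-fold (log2 1.56, SE 0.11, adjusted p = 2.5e-13). Leaving out any 1 library gave 1.503 to 1.624. Its signalling partner Fcer1g changed by 0.16 (SE 0.05), and within a library Oscar had 4.19 ± 0.110 counts per 100 Fcer1g counts in Sham and 11.01 ± 0.757 in GMTT. Oscar thus rose relative to its adaptor gene in every GMTT library. In the annotation used by the files Oscar overlaps Tfpt on the same strand, and how reads there were assigned is not stated. Tfpt had 757 counts in Sham and 692 in GMTT over the group, while Oscar had 328 and 1020. Macrophage markers had 9 genes higher and 3 lower of 14, with a median of 0.34. Ms4a7 (1.17), Cx3cr1 (1.07), Cd14 (1.05) and Ccr2 (0.82) rose most among them, C1qa (-0.25) and C1qb (-0.23) fell, and Lyz2 (0.04) was not called.

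Calcr was 0.61 higher (SE 0.21, adjusted p = 0.0139), from 24 to 35 counts a library in Sham to 45 to 52 in GMTT, a call lost without Sham replicate 3 (0.48), without GMTT replicate 2 (0.54) and in DESeq2 (adjusted p = 0.0514). Nfatc1 was 0.57 higher (SE 0.07, adjusted p = 1.63e-08), a direction that held with library sizes only (0.58), beside muscle markers that rose by a median of 3.21. Its libraries ran from 21.0 to 25.4 CPM in Sham and from 33.7 to 36.9 in GMTT. Atp6v0d2 was 0.32 higher (SE 0.12, adjusted p = 0.0219), at 7.05, 8.36 and 7.95 CPM in Sham and 9.26, 10.6 and 9.35 in GMTT, and that call was lost without Sham replicate 1 or GMTT replicate 2 (0.25 each). Of these 3, Nfatc1 kept its call in every alternative tried except the 2-fold minimum.

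Car2 fell the most, to 1063 ± 33.5 CPM from 2029 ± 64.5 (log2 -0.93, SE 0.04, adjusted p = 3.45e-18). Erythroid markers were also lower, 10 of 10, with a median of -0.90; Slc4a1, the red cell anion exchanger, changed by -0.86. Car2 gave 51.4 ± 2.84 counts per 100 Slc4a1 counts in Sham and 48.9 ± 2.73 in GMTT, with overlapping libraries, but 324 ± 74.8 in GPI, whereas per 100 Ctsk counts it gave 517 ± 17.2 in Sham and 307 ± 6.98 in GMTT. The resorption enzymes Acp5 and Ctsk fell less, by 0.37 (SE 0.05, adjusted p = 9.49e-07) and 0.18 (SE 0.04, adjusted p = 0.000569) on the log2 scale. Acp5 was at 153 ± 11.02 CPM in GMTT and 198 ± 11.1 in Sham, and Ctsk at 346 ± 6.30 and 393 ± 5.76.

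The fusion genes did not share a direction. Dcstamp fell from 5.92, 4.89 and 5.84 CPM to 3.46, 3.95 and 3.82 (log2 -0.57, SE 0.14, adjusted p = 0.00094), and Atp6v0d2 rose as given above. Dcstamp gave 72.0 ± 12.8 counts per 100 Atp6v0d2 counts in Sham and 38.5 ± 2.07 in GMTT, with no overlap. Ocstamp was -0.34 (SE 0.29, adjusted p = 0.325), at 15 to 21 counts a library, with no overlap but a change of that size was not detectable at this depth. Siglec15 was 0.08 (SE 0.12, adjusted p = 0.56), with overlapping libraries.

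Counts per 100 Ctsk counts are free of scaling between libraries. Oscar gave 1.28 ± 0.0512 in Sham and 4.27 ± 0.296 in GMTT, Nfatc1 5.99 ± 0.528 and 10.1 ± 0.662, and Dcstamp 1.41 ± 0.137 and 1.08 ± 0.0904. Siglec15, which overlapped between the groups in CPM, did not overlap on this measure (1.79 ± 0.160 and 2.15 ± 0.0653), whereas Ocstamp overlapped here and not in CPM. Ratios within a library were tested between GMTT and Sham, 13 in all, over Ctsk, Fcer1g, Atp6v0d2, Slc4a1 or the macrophage markers. Of these 13, 11 reached 0.1, the smallest p that an exact 2-sided permutation test of 3 against 3 allows (0.118 after Benjamini-Hochberg adjustment over the 13). Ocstamp over Ctsk (exact p = 0.3) and Car2 over Slc4a1 (exact p = 0.4) did not. This design cannot reach 0.05 for a single ratio.

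**Figure D4:**
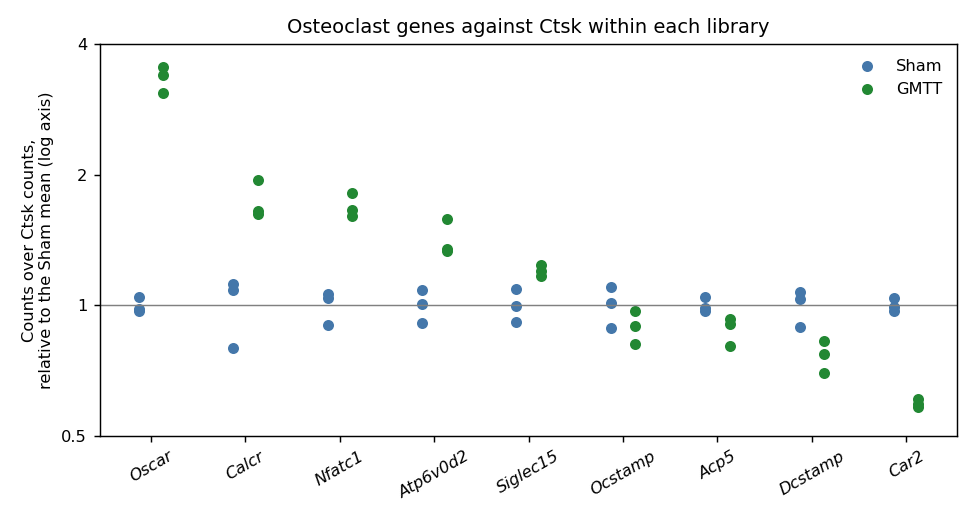
Counts of 9 osteoclast genes over Ctsk counts in each Sham and GMTT library, divided by the Sham mean (log axis). Oscar stands highest and Car2 lowest in GMTT, and Ocstamp overlaps between the groups.

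The 47 related genes had 25 higher, 7 lower and 15 not called in GMTT against Sham, with a median of 0.16. Of all tested genes 29.5% were higher, 28.3% lower and 57.8% called in either direction. In the receptor list Csf1r (0.48), Itgb3 (0.39) and Itgav (0.41) rose and Tec fell (-0.39), 8 higher and 2 lower of 14. Among matrix removal genes Mmp14, a membrane collagenase gene also active in fibroblasts, rose most (1.02, SE 0.05), and Mmp9 (0.42) and Snx10 (0.36) rose. Ostm1 fell by 0.17, and Tcirg1, Clcn7, Slc4a2, Plekhm1 and Slc9b2 were not called (-0.19 to 0.07). The promoting factors had 6 of 9 higher, including Fos (0.97), Jdp2 (0.40), Spi1 (0.24) and Nfkb1 (0.22). Among the opposing factors Bcl6 was higher by 0.99 and Irf8 by 0.42. Of the fusion partners P2rx7 (1.15), Sh3pxd2a (0.43) and Cd44 (0.19) were among the 4 that rose, and Adam8 (-0.21) among the 3 that fell. Tnfsf11 was at 3.44 CPM in Sham and 3.27 in GMTT (-0.08, not called), while Tnfrsf11b fell (-0.59, SE 0.17) and Il34 rose (0.61, SE 0.20).

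**Figure D5:**
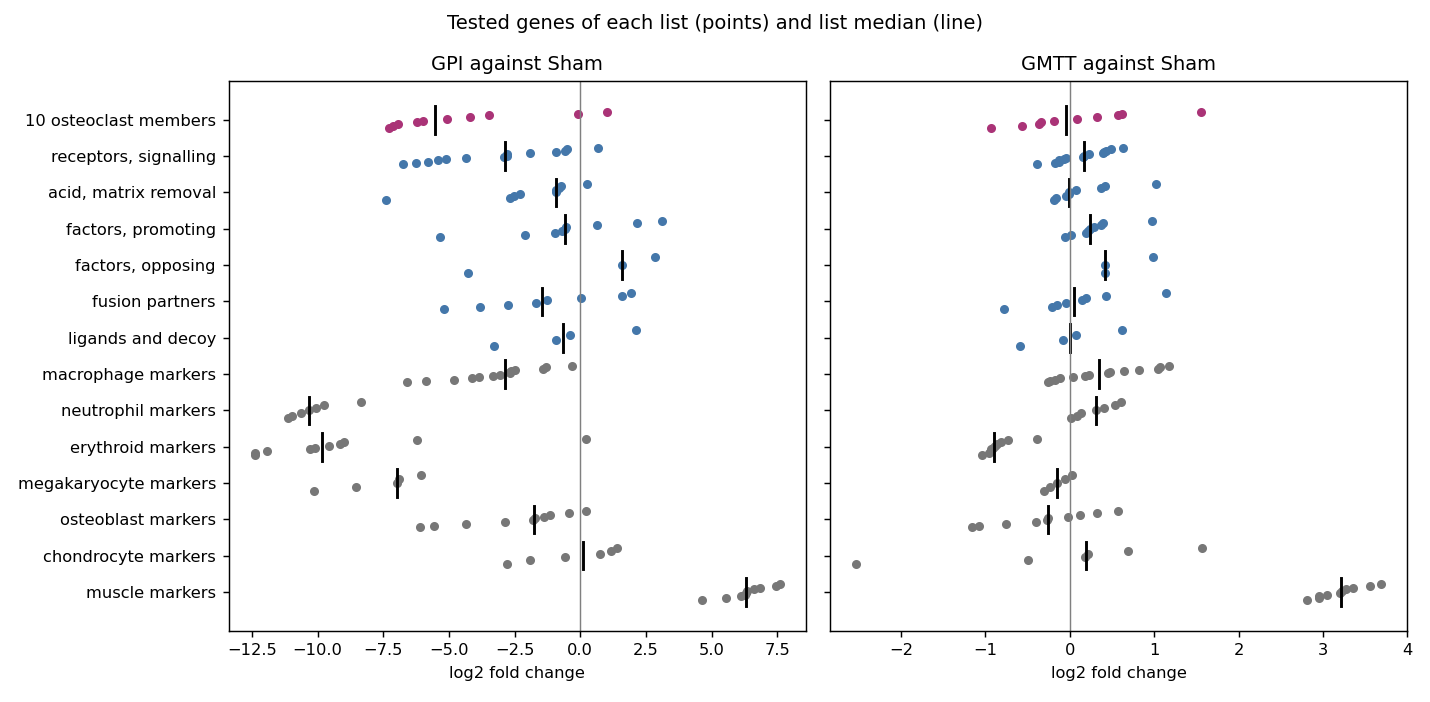
Fitted log2 fold changes of every tested gene in the osteoclast set, the 6 lists of related osteoclast genes and the 7 marker lists, with the list median as a line. Values of genes without counts in GPI depend on the fit. In GPI the medians of the osteoclast set and the macrophage and blood lists lie below 0 and that of muscle markers above; in GMTT against Sham the erythroid markers lie near -0.90 the muscle markers at 2.81 to 3.69, and Oscar is the highest of the osteoclast set at 1.56.

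Likeness of pattern was measured as the root mean square difference of centred log2 CPM over the 9 libraries. Candidates were 9284 genes outside the 10 whose log2 CPM averaged 3 or more. Genes with a provisional, missing or mitochondrial (Mt-) symbol were left out. The genes nearest to the mean profile of the 10 were P2rx1 (0.05), Cyth4 (0.07), Sirpa (0.07), Anxa1 (0.09) and Ctsz (0.09). P2rx1 changed by -3.80 from Sham to GPI on this scale, against a fitted median of -5.52 for the 10. These genes therefore match the mean, which takes in Nfatc1 and Calcr, and not each member. Ctsk lay closest to that mean among the members (0.25) and Nfatc1 farthest (2.17). Nearest to Oscar, though at a wide distance, were Lilrb4 (0.46), Ccr2 (0.51) and Tlr2 (0.55), and nearest to Car2 were Dmtn (0.09), Pttg1 (0.14) and Tent5c (0.15). Among the 3 genes nearest to Nfatc1 were Capn2 and Hdac4 (0.09 each), and Acp5 was nearest to Cdc45 (0.13), Haspin (0.14) and Tonsl (0.15). All such distances mainly reflect the 3 group means, so many genes lie close.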

How the data were processed

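Poly(A) RNA was made into strand-specific paired-end libraries, per the labels' protocols. Whole-number counts and FPKM per gene are the values the authors deposited, on mRatBN7.2 by the submitters' processing notes. No source used here names the aligner, counter or strand setting. Each deposited FPKM is the count divided by gene length and by a library constant (relative deviation up to 5.11e-15) that follows a size factor, not the library total. edgeR 4.0.16 (R 4.3.3) fitted all 9 libraries as 3 groups, with TMM scaling, a minimum count of 10 and the robust quasi-likelihood F test. The 15936 genes left were adjusted together (Benjamini-Hochberg), and calls were made below 0.05. The SE is the log2 fold change over the root of F. Normalised CPM use TMM-scaled library sizes. Count ratios have exact 95% intervals, and a group at 0 was given 3 counts over the group. The members and gene lists were chosen with earlier results of these data known. In each related list, up to 4 genes with the smallest p in GPI against Sham and in GMTT against Sham were named. Clcn7, Slc4a2, Plekhm1, Slc9b2, Tfrc, Ms4a7, Cx3cr1 and Cd14 were named outside that rule, after their values were seen. Some genes that the rule names are not reported here. Markers were the 3 per list with the highest FPKM, and Slc4a1 served for ratios. Alternatives covered other scalings (median of ratios, or none beyond library size), DESeq2 1.42.0, other filters, 6-library fits, a replicate block, limma 3.58.1 on log2 FPKM with a pseudocount of 1 or 0.1, a 2-fold minimum, removal of mitochondrial, muscle and erythroid genes, and omission of each library. Replicates differed by more than sampling noise (chi-square per degree of freedom 1.94 to 4.88). The code was tested on simulated data. Figures used matplotlib 3.10.9.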

Additional observations from a re-analysis of the deposited data

How the results depend on the processing

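Of the 30 fold changes of single osteoclast genes, 581 of 594 alternative values kept direction and call. With library sizes only, Nfatc1 turned to -0.069 in GPI against Sham and 0.65 in GMTT against GPI. Calcr in GPI against Sham was 0.0022 without Sham replicate 2 and 0.12 without GPI replicate 2, within a range of -0.26 to 0.12 over the 9 omissions. Beyond the losses given with the results, the Atp6v0d2 call in GMTT against Sham was lost on log2(FPKM + 0.1) (adjusted p = 0.536, limma). A 2-fold minimum left 1 osteoclast gene and 2 related genes in GMTT against Sham, and 9285, 8453 and 1854 of all genes (GPI over Sham, GMTT over GPI, GMTT over Sham). In the same order, leaving out 1 library gave 9, 9 to 10 and 6 to 8 called osteoclast genes, and 43 to 46, 45 to 46 and 28 to 33 related genes. Same-numbered libraries correlated at -0.15 to 0.06 in their deviations, which showed no pairing by number but cannot exclude one. With a replicate block 9, 10 and 8 osteoclast genes were called, and no osteoclast gene changed its call. With library sizes only, all genes split into 3521 higher and 11210 lower in GPI against Sham and 11503 and 3016 in GMTT against GPI. The filter of 5 CPM in 3 libraries left out Ocstamp and Calcr. Depth limits the fusion and receptor genes in GPI, with 0 to 6 counts a library apart from Calcr.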

Other observations

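Car3, the gene next to Car2 on chromosome 2 (13602 bases away, same strand, also a carbonic anhydrase gene, chosen after its values were seen), went the other way. It had 7760 counts over the Sham libraries, 187229 in GPI and 47306 in GMTT, against 132611, 557 and 73348 for Car2. Muscle markers took 0.197%, 8.45% and 1.92% of counts on average in Sham, GPI and GMTT, the same order as Car3. The part of muscle content in the Car3 counts was not tested.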
